A study of Mus musculus with 19 samples.

Results

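The genes described here encode the Wnt ligands, their Frizzled receptors and LRP co-receptors, the secreted Wnt antagonists, and a pair of genes used as readouts of the pathway. Members were all genes whose array symbol is Wnt, Fzd, Dkk or Sfrp followed by a digit, together with Wif1, Frzb, Lrp5, Lrp6, Axin2 and Lgr5, with values on at least 70% of the arrays. All 43 such genes on the array met that limit, of 18553 genes tested in all. They comprise 19 Wnt ligands, 10 Frizzled receptors, 2 LRP co-receptors, 4 Dickkopf genes, 6 genes of the secreted Frizzled-related and WIF type, and the 2 readouts Axin2 and Lgr5. Of the 43 genes, 33 were measured on all 19 arrays, and 29 rested on 1 spot.

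The arrays held RNA from 19 mammary adenocarcinomas of FVB mice, all of which carry the Simian virus 40 T antigen driven by the rat C3(1) promoter (the C3(1)-Tag mouse). There were 7 untreated tumours and 12 tumours from mice given carboplatin, a platinum drug that crosslinks DNA, with paclitaxel, a taxane that stabilises microtubules. The treated tumours were titled as 9 non-responders, 4 taken at 2 weeks of treatment and 5 at 3 weeks, and 3 responders, 1 at 2 weeks and 2 at 3 weeks. The sources used here do not give the criterion of response or the age of the mice. Tumours are numbered within a group in the order of deposition, which pairs nothing. Responder 3 and non-responder 1 carry the same animal number in their titles. All 3 responders are among 7 arrays whose titles have a hyphen after the name of the transgene, beside 2 untreated tumours and 2 non-responders. Values within those 7 arrays are therefore given for most members whose results rest on the responders. The labels do not say that the other tumours came from separate mice, so p-values measure the spread between these tumours.

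Wnt proteins are secreted, lipid-modified ligands that bind a Frizzled receptor together with LRP5 or LRP6, which stops the destruction of beta-catenin and lets it switch on genes through TCF and LEF factors. Several Wnts also act through Frizzled receptors without beta-catenin. Dickkopf proteins bind the LRP co-receptors, whereas secreted Frizzled-related proteins and WIF1 bind Wnts in the extracellular space. In the mouse mammary gland the pathway is known for its part in branching and in the upkeep of basal progenitor cells, and Wnt1 was found as a gene activated by mouse mammary tumour virus.

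Promoters of the members were searched for CTTTGAT and CTTTGAA, letters known as a binding sequence of TCF and LEF factors, on both strands of the 250 bases before each RefSeq start (build GRCm38.p6). The motifs cannot overlap each other on a strand, since each has a C at its first base and nowhere else. A promoter was listed for 28 of the 43 members. Of these, 3 (10.7%) held a match, beside 8.63% of the 27025 genes in the table. Counted by start site, 9.68% of the members' 31 promoters and 7.48% of all 32851 promoters held a match. The promoters with a match are shown because they are the members' sequences that carry these letters. They were picked after the search, by the match and not by an array value. The promoter of Wnt11 is chr7:98834862-98835111 on the plus strand. The promoter of Wnt5b is chr6:119449387-119449636 on the minus strand, and that of Dkk1 is chr19:30549497-30549746 on the minus strand. Capitals mark the match.
Wnt11: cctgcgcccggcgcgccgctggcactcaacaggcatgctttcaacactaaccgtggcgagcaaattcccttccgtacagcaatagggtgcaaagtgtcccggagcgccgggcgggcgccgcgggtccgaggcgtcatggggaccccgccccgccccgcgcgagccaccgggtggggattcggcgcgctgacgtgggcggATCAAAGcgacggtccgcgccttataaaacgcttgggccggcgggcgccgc
Wnt5b: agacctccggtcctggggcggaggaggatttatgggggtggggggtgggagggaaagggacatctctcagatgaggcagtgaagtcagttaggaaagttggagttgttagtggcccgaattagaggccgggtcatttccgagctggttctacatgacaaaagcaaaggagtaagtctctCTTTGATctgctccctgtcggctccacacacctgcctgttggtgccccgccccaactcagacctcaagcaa
Dkk1: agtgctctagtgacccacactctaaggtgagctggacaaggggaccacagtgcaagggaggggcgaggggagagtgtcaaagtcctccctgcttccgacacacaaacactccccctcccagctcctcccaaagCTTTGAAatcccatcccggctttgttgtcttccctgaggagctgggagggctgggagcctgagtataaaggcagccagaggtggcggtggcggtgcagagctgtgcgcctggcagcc
In Wnt11 the match is CTTTGAT read from the other strand, and its first printed base has the position -51 from the start site. In Wnt5b it is CTTTGAT at -71, and in Dkk1 it is CTTTGAA at -117. Other listed start sites of Wnt11 and Wnt5b held no match, and neither did the promoter of Axin2, a known target of beta-catenin. A match describes letters and is not a measured binding site. The treated minus untreated difference, described below, was 0.62 for Wnt11, 0.14 for Wnt5b and -0.33 for Dkk1 on the log2 scale. The Dkk1 difference turned to 0.46 without untreated tumour 3, and the 2 spots of Dkk1 gave -0.20 and 0.87.

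Each value below is a log2 ratio of tumour RNA, labelled with Cy5, over a whole-mouse reference RNA labelled with Cy3, with the spots of a gene averaged. The direction of the ratio is likely rather than stated, and rests on liver genes lying far below 0, such as Fabp1 with a mean of -6.85 in untreated tumours. If it ran the other way, every sign would turn. Values are not compared between genes, since each is relative to that gene's own level in the reference. The 6 markers of tumour epithelium had a mean of 0.91 to 1.90 in each of the 19 tumours, with Krt18 at 2.75 and Epcam at 2.47 in untreated tumours. Between 1.63% and 9.10% of the spots of an array were listed at exactly 0 and were taken as not measured. In a tumour piece, fewer cells of a type and less RNA per cell cannot be told apart.

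The comparison of treated with untreated tumours asks which Wnt pathway genes differ after carboplatin and paclitaxel. The members with the smallest p-values were the antagonist Sfrp1, the ligand Wnt11, the Dickkopf gene Dkk3 and the ligand Wnt4, each with a positive difference of 0.61 to 1.34. None of the 43 members passed an adjusted p of 0.05 (limma, adjusted over all genes tested), where 3.65% of all genes did. At an unadjusted p under 0.05 there were 6 members (14.0%), 5 of them with a positive difference, beside 20.0% of all genes. For 0 members did the tumours of both groups lie fully apart, beside 0.334% of all genes. The median difference over the members was 0.12, beside 0.03 over all genes, and 24 of the 43 were positive.

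Non-responders and responders were each set against the same 7 untreated tumours. In non-responders the smallest p-values belonged to Sfrp1, Wnt4, Lrp5 and Dkk3, and in responders to Wnt11, Fzd1, Wnt10b and Dkk3. Non-responders gave 0 members that passed in limma, beside 1.53% of all genes, and 6 members (14.0%) at an unadjusted p under 0.05, beside 17.3% of all genes. Their groups lay apart for 0 members, beside 0.528% of all genes. Responders gave 0 members that passed in limma, beside 0.0755% of all genes, and 8 members (18.6%) at an unadjusted p under 0.05, beside 16.1% of all genes. For 3 of the 43 members, Wnt10b, Dkk3 and Lrp6, the groups lay apart, a share close to the 7.04% of all genes. The median difference over members was 0.06 in non-responders and 0.16 in responders. The count of 6 in non-responders was 3 without untreated tumour 4, untreated tumour 6, non-responder 4 or non-responder 5. That count was 2 within the 7 hyphen-titled arrays. The count of 8 in responders was 4 without responder 1 and 5 within the 7 hyphen-titled arrays.

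Responders were set against non-responders to ask which members differ with the titled response. Wnt10b, Fzd8, Axin2, Fzd1 and Fzd4 had the smallest p-values, all with a positive difference. In limma 0 members passed, and the share of all genes that did was also 0%. Those 5 members (11.6%) had an unadjusted p under 0.05, beside 6.33% of all genes. Wnt10b was the 1 member of 43 whose groups lay apart, beside 1.85% of all genes. The median difference over members was 0.17, beside -0.01 over all genes. The count of 5 was 1 within the 7 hyphen-titled arrays, 1 at 3 weeks alone and 3 with title style as a term. It was 2 without responder 1, and 3 without responder 3, non-responder 7 or non-responder 8.

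Within the treated group, 7 tumours taken at 3 weeks were set against 5 taken at 2 weeks, in a fit that also held response. Wnt7a, Fzd3, Fzd6 and Lrp6 had the smallest p-values, all with a negative difference. In limma 0 of 42 members passed, and the share of all genes that did was also 0%. At an unadjusted p under 0.05 there were 0 members, beside 4.46% of all genes. That count was 4 within the 7 hyphen-titled arrays, and 2 with title style as a term or without the tumours that share an animal number. It was 1 without non-responder 1, 2, 4, 5 or 7, and 2 without non-responder 6 or 9. Dkk4 was measured on too few treated arrays for this comparison.

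The members' values spread more widely between tumours than those of the usual gene. The SD between untreated tumours had a median of 0.704 over the members, beside 0.485 over all genes. The 95% interval of the treated minus untreated difference reached a median of 0.68 to either side for members, beside 0.50 for all genes. For responders minus non-responders it reached 0.94, beside 0.69. For the usual member, an estimated difference below these sizes had an interval that included no difference. These sizes are not detection limits, since the adjusted threshold used for calls needs a larger difference at the same SE. Sfrp1, at 1.11 ± 0.33 for treated minus untreated, still missed that threshold (SE, limma adjusted p = 0.0585). A missed threshold does not show equal levels.

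**Figure D1:**
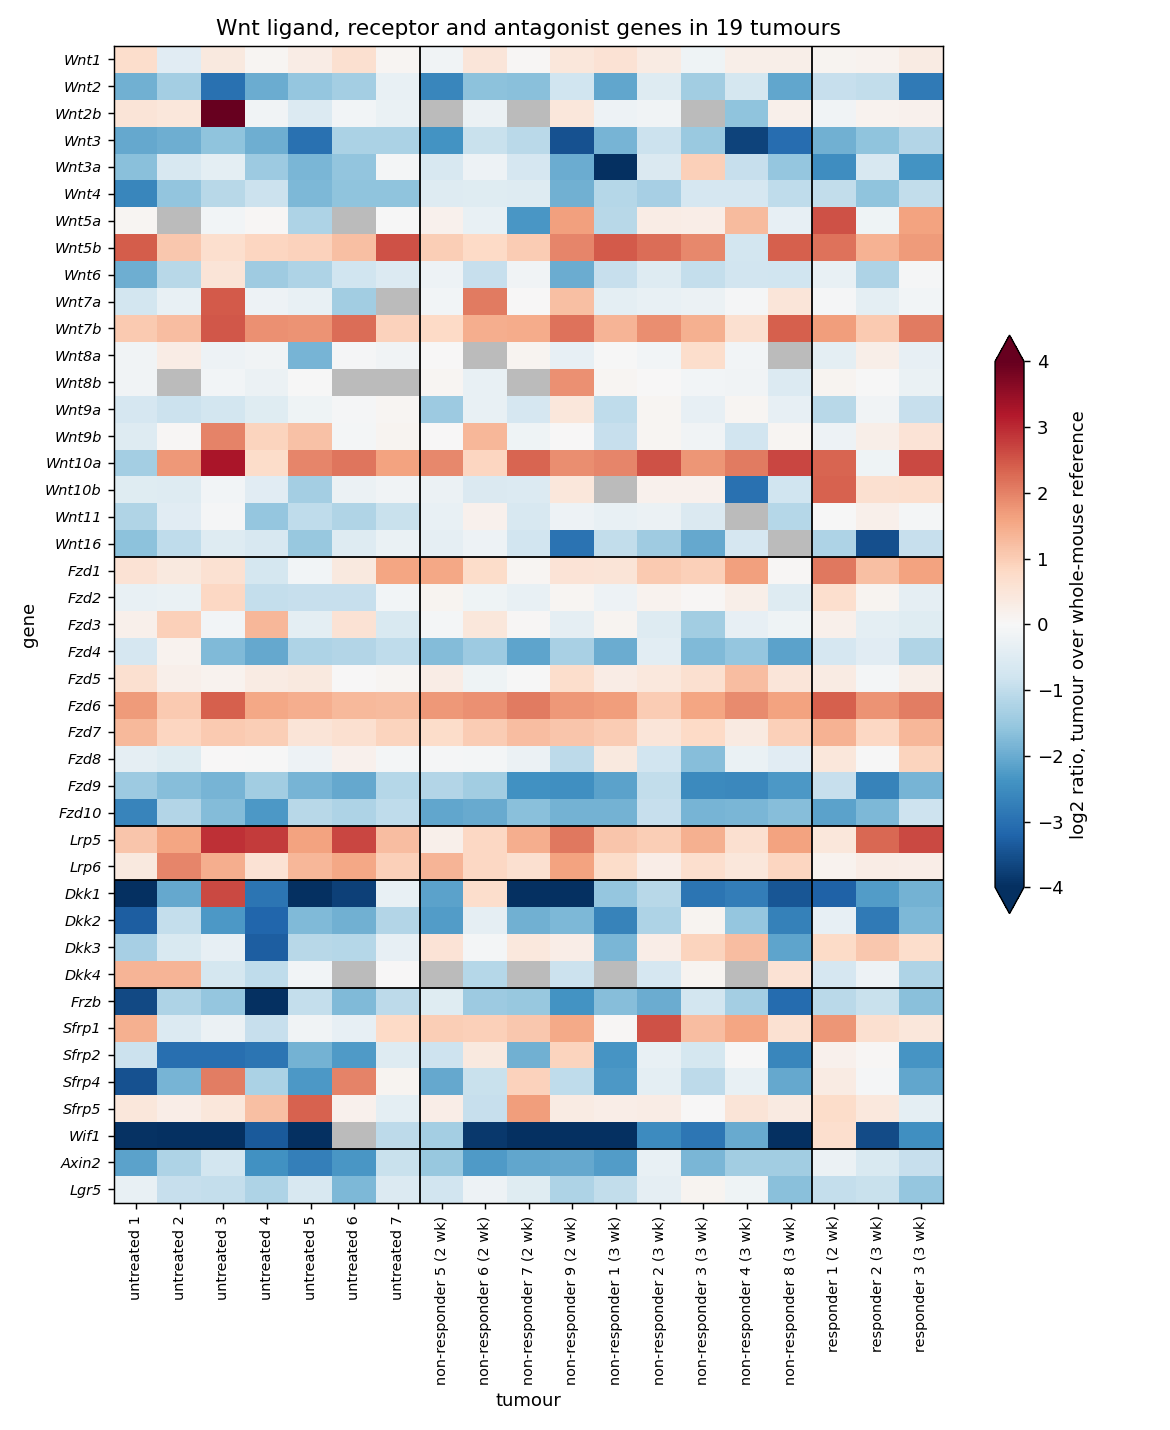
Log2 ratio of each of the 43 genes (rows, in blocks of ligands, Frizzled receptors, LRP co-receptors, Dickkopf genes, secreted Frizzled-related and WIF genes, and readouts) in each of the 19 tumours (columns), red above and blue below the whole-mouse reference, with grey for a value not measured. The colour scale ends at 4 to either side, and single tumours stand out in Wnt2b, where untreated tumour 3 was at 4.47, and in Wnt3a, where non-responder 1 was at -6.32.

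Among the 19 ligands, Wnt5b, Wnt7b and Wnt10a lay above the reference in untreated tumours, with means of 1.39, 1.65 and 1.44. Wnt7b, a ligand of beta-catenin signalling in epithelia, ranged from 0.93 to 2.48 in untreated and from 0.64 to 2.38 in treated tumours. Wnt10a, a ligand of skin and tooth development, ranged from -1.36, in untreated tumour 1, to 3.26 in untreated tumour 3. In treated tumours Wnt10a ranged from -0.18, in responder 2, to 2.68. The ligands Wnt2, Wnt3, Wnt3a and Wnt4 had means of -1.64, -1.86, -1.09 and -1.59 in untreated tumours. Wnt1, the mammary oncogene of the family, was measured by 10 spots and stayed close to the reference, from -0.46 to 0.69 over all tumours. Its treated minus untreated difference was -0.03, the smallest of the ligands in size.

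Wnt11, a ligand that acts mostly without beta-catenin, was measured in all tumours but non-responder 4. In untreated tumours its lowest, median and highest values were -1.55, -1.02 and -0.05. In non-responders they were -1.13, -0.30 and 0.16, and responders 1 to 3 had -0.02, 0.21 and -0.06. Of 11 measured treated tumours, 10 lay above the untreated mean. Untreated tumours 2 and 3 lay among the treated ones, and non-responder 8 lay among the untreated ones. The treated minus untreated difference was 0.62 ± 0.21 (SE, 95% interval 0.18 to 1.07, limma adjusted p = 0.0985). Responders alone differed from untreated tumours by 0.95 ± 0.29 (SE, limma adjusted p = 0.117). On the 7 hyphen-titled arrays that difference was 0.86. Without untreated tumour 3 the treated minus untreated difference was 0.77 and passed (limma adjusted p = 0.0405).

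Wnt4, a ligand needed for side branching in the mammary gland, had lowest, median and highest values of -2.60, -1.61 and -0.86 in untreated tumours. In non-responders these were -1.92, -0.66 and -0.49, and responders 1 to 3 had -0.97, -1.62 and -0.98. Non-responder 9 and responder 2 lay below the untreated median, and 10 of 12 treated tumours lay above the untreated mean. The difference was 0.61 ± 0.23 for treated minus untreated (SE, limma adjusted p = 0.138) and 0.68 ± 0.25 for non-responders minus untreated (SE, limma adjusted p = 0.152).

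Wnt10b, a ligand of beta-catenin signalling that drives mammary tumours when overexpressed in mice, was 2.36, 0.65 and 0.66 in responders 1 to 3. Untreated tumours had a lowest, median and highest value of -1.35, -0.45 and -0.12, and 8 measured non-responders had -2.97, -0.40 and 0.46. Every responder lay above every other measured tumour, responder 1 by the widest margin, while non-responder 4 lay far below the rest. Responders differed from non-responders by 1.77 ± 0.54 (SE, 95% interval 0.63 to 2.90, limma adjusted p = 0.603) and from untreated tumours by 1.69 ± 0.55 (SE, limma adjusted p = 0.135). Within the 7 hyphen-titled arrays these differences were 1.04, with 1 measured non-responder, and 1.72. At 3 weeks alone responders minus non-responders was 1.51. Without responder 1 the difference from non-responders was 1.20. Non-responder 1, whose title shares its animal number with responder 3, had no value. Wnt1, which lies next to Wnt10b on chromosome 15, differed by -0.03 between responders and non-responders as the average of 10 spots, which ran from -1.80 to 0.37.

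Among the other ligands single tumours stood apart. Wnt5a, the best known ligand of signalling without beta-catenin, was 2.55, -0.16 and 1.61 in responders 1 to 3. In non-responders its lowest, median and highest values were -2.33, 0.17 and 1.64, and 5 measured untreated tumours had values from -1.23 to 0.07. Responders 1 and 3 lay above all untreated tumours and responder 2 did not. The difference between responders and untreated tumours was 1.59 ± 0.72 (SE, limma adjusted p = 0.290), 1.27 within the 7 hyphen-titled arrays and 0.98 without responder 1. Wnt2b reached 4.47 in untreated tumour 3 and lay between -1.61 and 0.50 in the other measured tumours. Wnt3a was -6.32 in non-responder 1 and between -2.47 and 0.95 in the rest.

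Wnt7a, a ligand that keeps epithelia of the female reproductive tract in form, had the smallest p of the members between 3 and 2 weeks. At 2 weeks non-responders 5, 6, 7 and 9 had -0.10, 2.07, 0.01 and 1.21, and responder 1 had -0.06. At 3 weeks non-responders 1, 2, 3, 4 and 8 had -0.38, -0.29, -0.23, -0.04 and 0.47, and responders 2 and 3 had -0.40 and -0.12. Non-responders 6 and 9 at 2 weeks were high, and the other 3 tumours at 2 weeks lay within the range at 3 weeks. The difference, 3 weeks minus 2 weeks, was -0.73 ± 0.36 (SE, 95% interval -1.52 to 0.06, limma adjusted p = 0.940), and -0.40 without non-responder 6. The remaining ligands Wnt6, Wnt8a, Wnt8b, Wnt9a, Wnt9b and Wnt16 had treated minus untreated differences from -0.51 to 0.31, of which Wnt9b was the lowest and Wnt8a the highest. Without single tumours Wnt9b was at -0.27 (untreated tumour 3), Wnt8a at 0.05 (untreated tumour 5), Wnt6 at 0.02 (untreated tumour 1) and Wnt8b at 0.01 (non-responder 9). In that comparison Wnt2b was at -0.78, but at -0.14 without untreated tumour 3, and Wnt3a was at -0.36, but at 0.08 without non-responder 1. Wnt2 and Wnt3, at 0.12 and -0.10, also turned without some single tumours.

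**Figure D2:**
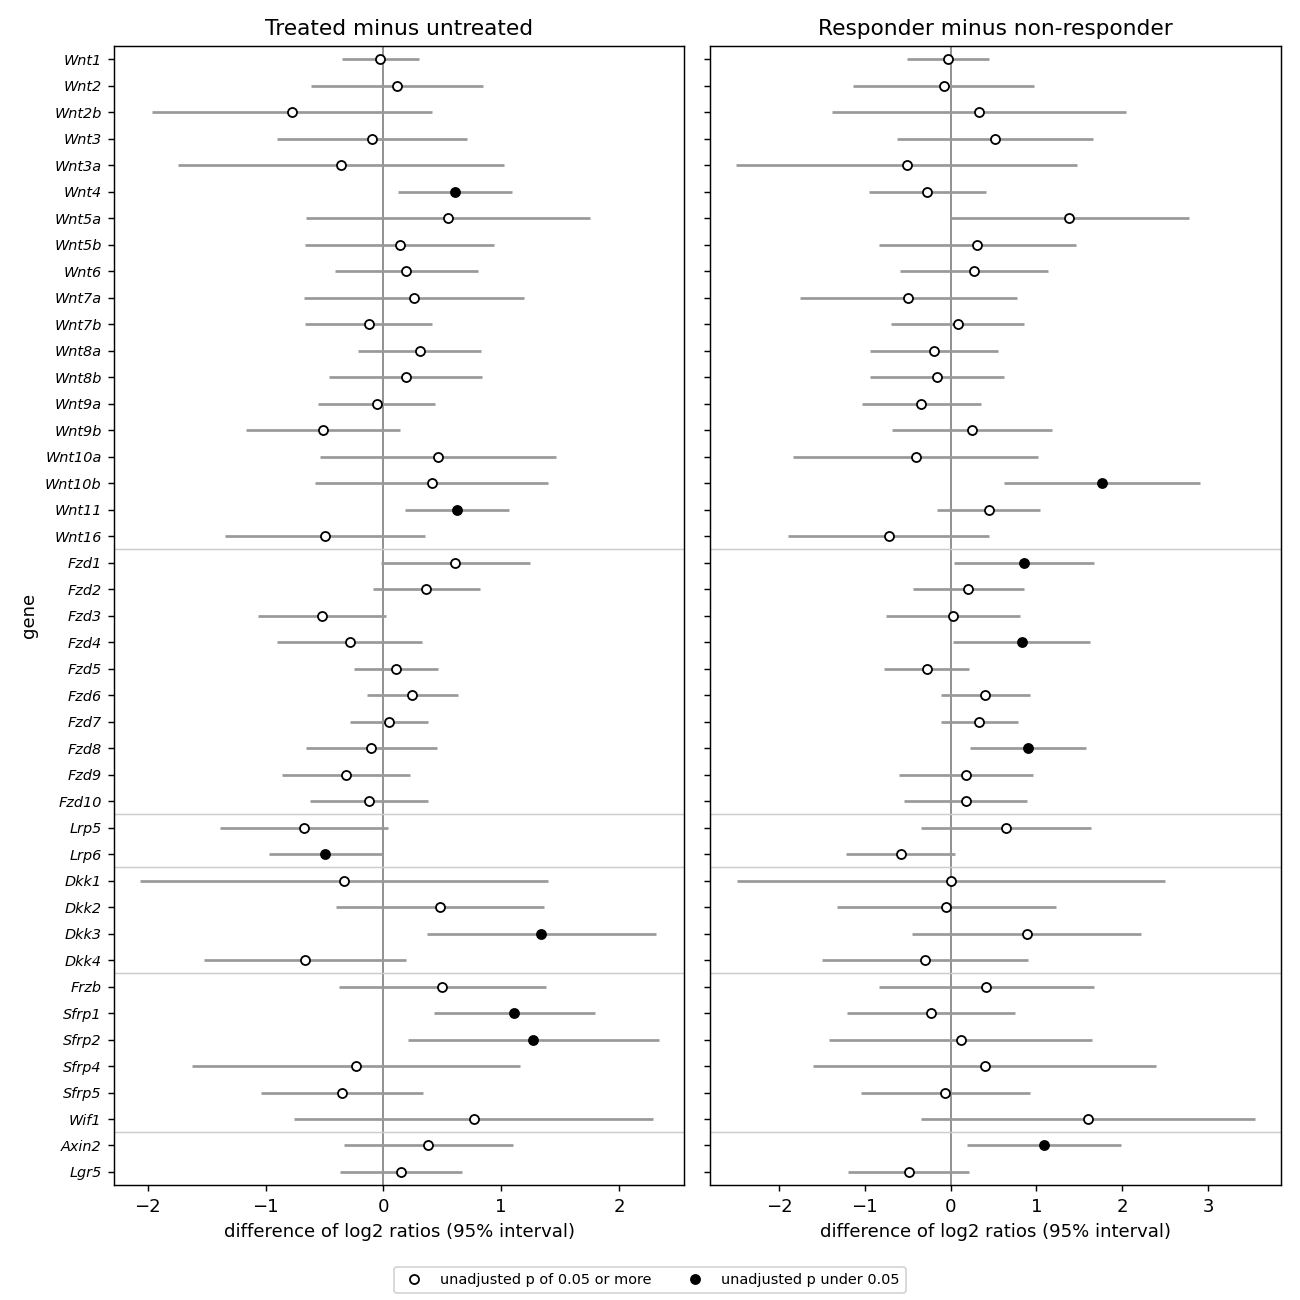
Difference of log2 ratios of each of the 43 genes (rows, blocks as by role) for treated minus untreated tumours (left) and responders minus non-responders (right), with 95% intervals from limma as lines. Filled points have an unadjusted p under 0.05, 6 on the left and 5 on the right, and none had an adjusted p under 0.05. The widest intervals belong to Wnt3a, Dkk1, Sfrp4 and Wif1.

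Of the 10 Frizzled receptors, Fzd6 lay above the reference in every tumour, with an untreated mean of 1.53, and Fzd7 did so too, with an untreated mean of 0.89. Fzd4, Fzd9 and Fzd10 had untreated means of -1.11, -1.64 and -1.60. For treated minus untreated tumours the receptors' median difference was -0.03, with 5 positive and 5 negative, and 0 of 10 had an unadjusted p under 0.05. For responders minus non-responders the median was 0.27 with 9 of 10 positive, beside 48.9% of all genes, and Fzd5 was the exception at -0.28. Fzd3 was nearly level there, with means of -0.22 in responders and -0.25 in non-responders. Its 3 spots gave -0.22, -0.19 and 0.73, and the 2 spots of Fzd10 gave -0.09 and 0.44. Fzd2, Fzd9 and Fzd10 had differences of 0.21, 0.18 and 0.17 there, and each turned without 1 responder, Fzd2 and Fzd9 without responder 1 (-0.06 and -0.27) and Fzd10 without responder 3 (-0.21).

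Fzd1, a receptor of Wnt ligands in the beta-catenin branch, was 2.12, 1.20 and 1.61 in responders 1 to 3. Its lowest, median and highest values were 0.04, 0.73 and 1.63 in non-responders and -0.70, 0.39 and 1.59 in untreated tumours. All responders lay above the untreated and the non-responder mean, but untreated tumour 7, non-responder 4 and non-responder 5 lay between them. The difference from untreated tumours was 1.25 ± 0.40 (SE, 95% interval 0.41 to 2.10, limma adjusted p = 0.127). The difference from non-responders was 0.86 ± 0.39 (SE, limma adjusted p = 0.749). Within the 7 hyphen-titled arrays these were 1.16 and 0.85, and at 3 weeks alone the second was 0.56.

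Fzd8, a receptor for which both spots gave the same direction between responders and non-responders (0.85 and 0.96), was 0.46, -0.03 and 0.88 in responders 1 to 3. Non-responders had a lowest, median and highest value of -1.70, -0.26 and 0.40, and untreated tumours had -0.50, -0.08 and 0.17. Responders 1 and 3 lay above all other tumours, whereas responder 2 lay among them. Responders minus non-responders was 0.90 ± 0.32 (SE, 95% interval 0.23 to 1.58, limma adjusted p = 0.659) and 0.62 within the 7 hyphen-titled arrays. Fzd4, a receptor that also binds the ligand norrin in blood vessels, was -0.68, -0.46 and -1.19 in responders. Its non-responder values ran from -2.15 to -0.43 with a median of -1.73, where non-responder 2 was the highest and lay above all responders. The difference was 0.83 ± 0.38 (SE, limma adjusted p = 0.758), but 0.42 within the 7 hyphen-titled arrays and 0.18 with title style as a term.

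Fzd3 and Fzd6, receptors known for planar cell polarity, had negative differences between 3 and 2 weeks. For Fzd3, non-responders 5, 6, 7 and 9 had -0.09, 0.46, 0.04 and -0.36 at 2 weeks and responder 1 had 0.19. At 3 weeks non-responders 1, 2, 3, 4 and 8 had 0.12, -0.52, -1.40, -0.32 and -0.18, and responders 2 and 3 had -0.39 and -0.48. The times overlapped, and non-responder 3 was the lowest. The 3 weeks minus 2 weeks difference was -0.51 ± 0.25 (SE, limma adjusted p = 0.940), and -0.33 without non-responder 3. Fzd6 had 1.72, 1.82, 2.08 and 1.73 in the same non-responders at 2 weeks and 2.39 in responder 1. At 3 weeks it had 1.67, 1.01, 1.56, 1.88 and 1.60 in non-responders and 1.81 and 2.04 in responders. Responder 1 was the highest and non-responder 2 the lowest, and the difference was -0.33 ± 0.17 (SE, limma adjusted p = 0.940).

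The co-receptors Lrp5 and Lrp6 lay above the reference in every tumour, with untreated means of 1.99 and 1.17. Lrp6 was 0.14, 0.30 and 0.27 in responders 1 to 3. Its lowest, median and highest values were 0.25, 0.72 and 1.61 in non-responders and 0.39, 1.33 and 1.94 in untreated tumours. Each responder lay below every untreated tumour, while non-responder 2 lay within the responders' range. Responders minus untreated was -0.93 ± 0.31 (SE, 95% interval -1.59 to -0.28, limma adjusted p = 0.142), and -0.93 within the 7 hyphen-titled arrays too. Treated minus untreated was -0.49 ± 0.23 (SE, limma adjusted p = 0.233), and -0.26 within the other 12 arrays. Both spots of Lrp6 had a negative treated minus untreated difference, -0.73 and -0.26. Between 3 and 2 weeks Lrp6 differed by -0.36 ± 0.21 (SE, limma adjusted p = 0.940), but by 0.15 within the 7 hyphen-titled arrays and by -0.22 without non-responder 9.

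Lrp5 was 0.45, 2.29 and 2.64 in responders 1 to 3. Its lowest, median and highest values were 1.12, 1.60 and 2.91 in untreated tumours and 0.19, 1.12 and 2.10 in non-responders. Responder 1 and non-responder 5 were the lowest of all tumours, and the groups overlapped. Non-responders minus untreated was -0.84 ± 0.36 (SE, 95% interval -1.58 to -0.09, limma adjusted p = 0.225), with 8 of 9 non-responders below the untreated mean. On the 7 hyphen-titled arrays that difference was -0.30, and on the remaining 12 it was -1.06.

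Among the 4 Dickkopf genes, Dkk3 had the largest treated minus untreated difference. Dkk3 is the divergent member of the family, and binding to LRP co-receptors is not its established role. Untreated tumours had a lowest, median and highest Dkk3 value of -3.30, -1.12 and -0.32, and non-responders had -2.12, 0.26 and 1.23. The 3 responders had 0.75, 1.07 and 0.70, each above every untreated tumour. Non-responders 1 and 8 lay between untreated tumours 1 and 4, the lowest of the untreated ones, and tumour 4 lay below all others. Treated minus untreated was 1.34 ± 0.47 (SE, 95% interval 0.37 to 2.31, limma adjusted p = 0.105), and responders minus untreated was 2.0 ± 0.66 (SE, limma adjusted p = 0.136). Non-responders minus untreated was 1.12 ± 0.48 (SE, limma adjusted p = 0.233). On the 7 hyphen-titled arrays it was 0.17, and on the remaining 12 it was 1.41. Without non-responder 8 the treated minus untreated difference was 1.55 and passed (limma adjusted p = 0.0407). The responder difference within the 7 hyphen-titled arrays was 1.80.

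The inhibitors Dkk1, Dkk2 and Dkk4 varied widely between tumours. Dkk1, a target of beta-catenin as well as its inhibitor, ranged from -4.45 to 2.64 in untreated tumours, where tumour 3 was the highest. In treated tumours it ranged from -4.69 to 0.69, and treated minus untreated was -0.33, which turned to 0.46 without untreated tumour 3. Its 2 spots gave -0.20 and 0.87, so -0.33 lies outside both. An array's value averages only the spots measured there, so spots missing on some arrays move it. The Dkk1 average therefore has no settled direction. Dkk2 ranged from -3.30 to -0.96 in untreated and from -2.82 to 0.10 in treated tumours, with a difference of 0.48 that was 0.28 without untreated tumour 1. Dkk4 was measured in 6 untreated, 5 non-responder and all 3 responder tumours, and treated minus untreated was -0.66, or -0.42 without untreated tumour 1 or 2.

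Sfrp1, a secreted antagonist that is often silenced in human breast cancer, had the smallest p of all members after treatment. Untreated tumours had a lowest, median and highest value of -0.91, -0.24 and 1.42, and non-responders had 0.06, 1.07 and 2.55. In responders 1 to 3 it was 1.75, 0.64 and 0.45. All 12 treated tumours lay above the untreated mean of 0.01, while untreated tumours 1 and 7, at 1.42 and 0.81, lay among the treated ones. Treated minus untreated was 1.11 ± 0.33 (SE, 95% interval 0.43 to 1.80, limma adjusted p = 0.0585). Both spots were positive, at 0.87 and 1.11, so the average of the spots measured on each array lay at the higher spot. Non-responders minus untreated was 1.17 ± 0.35 (SE, limma adjusted p = 0.0905), with the spots at 0.81 and 1.28. Responders minus untreated was 0.94 ± 0.49 (SE, limma adjusted p = 0.350), or 0.54 without responder 1. The treated minus untreated difference passed without untreated tumour 1 (1.35, limma adjusted p = 0.0175), without untreated tumour 7 (1.25, limma adjusted p = 0.0458) and without non-responder 1 (1.21, limma adjusted p = 0.0449). On the 7 hyphen-titled arrays it was 0.66, and on the remaining 12 it was 1.30, where it passed (limma adjusted p = 0.0438). The non-responder difference was 1.40 and passed without untreated tumour 1 (limma adjusted p = 0.0284).

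**Figure D3:**
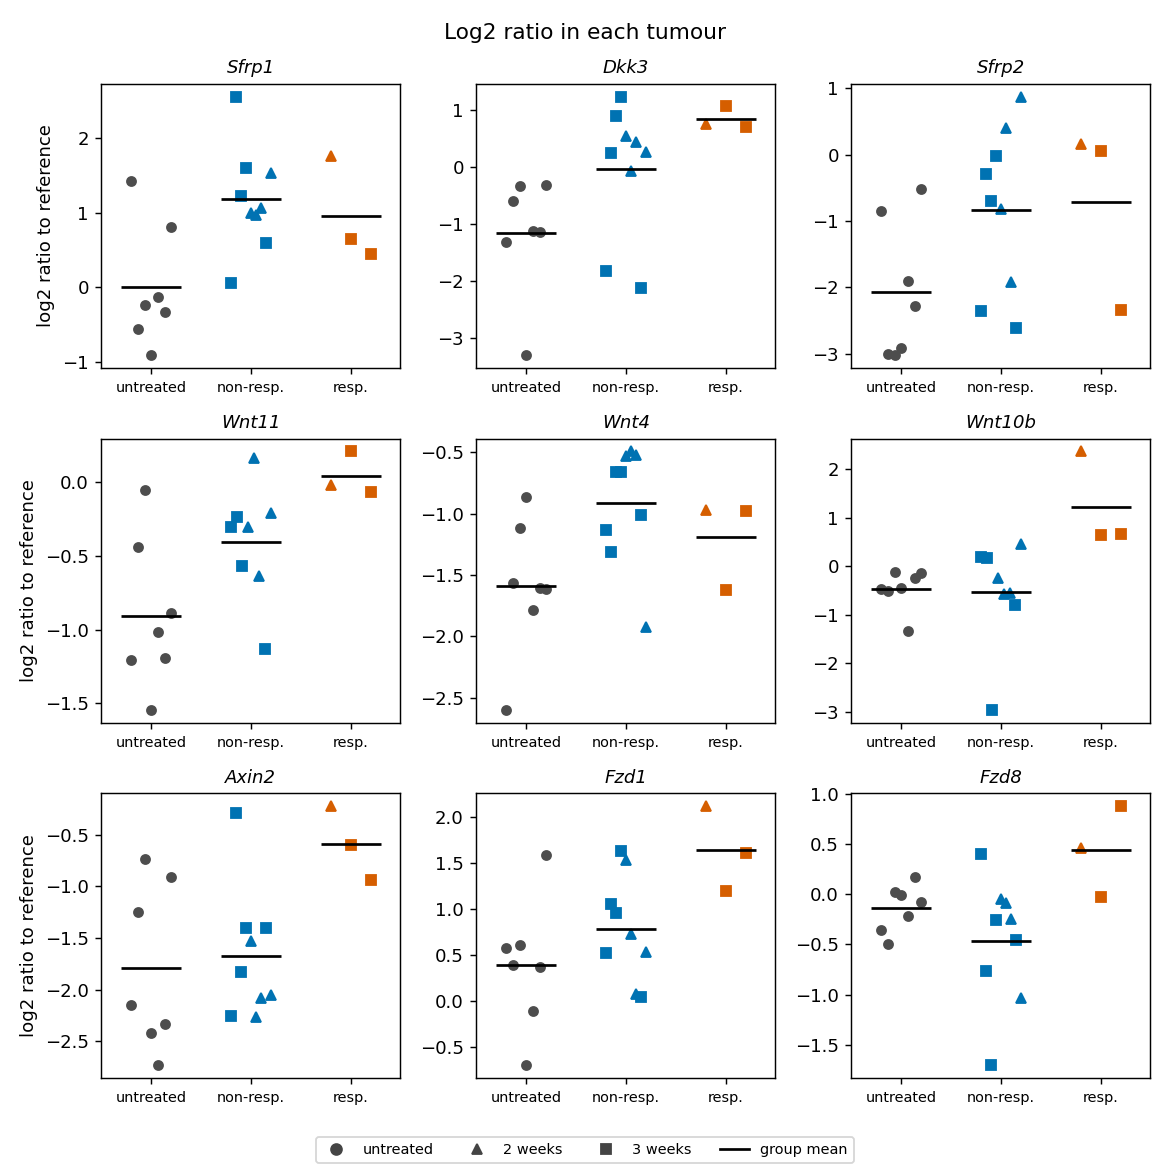
Log2 ratio over the whole-mouse reference in each tumour for 9 of the genes, with circles for untreated tumours, triangles for 2 weeks and squares for 3 weeks of treatment, and a bar at each group's mean; each panel has its own vertical scale. All 3 responders lie above the other measured tumours for Wnt10b, and for Sfrp1 untreated tumours 1 and 7 lie among the treated ones.

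Of the other secreted antagonists, Sfrp2 had untreated values of -3.03, -2.28 and -0.52 as lowest, median and highest, and non-responder values of -2.62, -0.70 and 0.88. Responders had 0.16, 0.06 and -2.35 in order of number. Non-responders 1, 7 and 8 and responder 3 lay among the untreated tumours, and the other treated tumours lay at -0.82 or above, where untreated tumour 7 also lay. Treated minus untreated was 1.27 ± 0.51 (SE, limma adjusted p = 0.161). Frzb, a Frizzled-related protein of cartilage, was below the reference in every tumour, and treated minus untreated was 0.50, or 0.16 without untreated tumour 4. Sfrp4 spread from -3.48 to 2.05 in untreated tumours, and its difference of -0.23 turned to 0.23 without untreated tumour 3. The difference of Sfrp5 was -0.35, or -0.06 without untreated tumour 5. Wif1, which binds Wnts through a domain unrelated to Frizzled, was far below the reference in most tumours, and responder 1 was the exception at 0.68. Responders minus non-responders for Wif1 was 1.60, with a 95% interval of -0.34 to 3.54. It was 0.36 without responder 1, 2.5 without responder 2 and 0.15 at 3 weeks alone. Between 3 and 2 weeks all 6 genes of this type had a negative difference, with a median of -0.39, beside -0.20 over the members and -0.04 over all genes. In that comparison 0 of the 6 had an unadjusted p under 0.05. The fibroblast and matrix markers described below were negative there for 16 of 19, with a median of -0.45, and the basal and myoepithelial markers for 10 of 12, with a median of -0.31.

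Markers of other cells in a tumour piece also differed with treatment. The mean over 19 of 20 fibroblast and matrix markers ran from -2.70 to -0.92 in untreated tumours, from -2.40 to -0.25 in non-responders, and was -0.11, -0.10 and -1.89 in responders 1 to 3. Non-responders 1 and 8 and responder 3, the treated tumours lowest in that mean, were also the 3 lowest treated tumours for Sfrp2. The match was not particular to fibroblast markers. The same 3 were the lowest treated tumours in the basal and myoepithelial mean and in the macrophage mean, both given below. In the endothelial mean they were not, with responder 3 at -0.78. For Dkk3, non-responders 1 and 8 were the 2 lowest treated tumours, but responder 3 was at 0.70, above every untreated tumour. Sfrp1, Wnt11 and Wnt4 were not set beside the markers in this way. For treated minus untreated, 18 of the 19 markers were positive with a median of 0.81, and 1 passed. The mean over 12 basal and myoepithelial markers ran from -1.72 to -0.69 in untreated tumours, from -1.19 to 0.05 in non-responders and from -0.88 to -0.33 in responders, and 3 of 12 passed. The mean over 12 of 15 macrophage markers ran from 0.20 to 1.13 in untreated, 0.98 to 2.05 in non-responder and 0.78 to 1.97 in responder tumours, and 5 of 12 passed. The mean over 12 endothelial markers ran from -1.81 to -0.76 in untreated and from -1.39 to -0.53 in treated tumours, and 3 of 12 passed. The mean over luminal markers, 13 of 14 measured, ran from 1.21 to 2.15 in untreated and from 1.15 to 1.82 in treated tumours. For treated minus untreated 0 passed in limma, with 7 at an unadjusted p under 0.05. Of these, 3 were higher and 4 lower, so the mean hides opposite differences. For responders minus untreated 1 luminal marker passed, as lower (limma adjusted p = 0.0454), beside 0.0755% of all genes. The part of these cell types in the values of Sfrp1, Sfrp2, Dkk3, Wnt11 and Wnt4 was not tested.

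The mean over 12 skeletal muscle markers was -1.82, -1.56 and -3.35 in responders 1 to 3, and ran from -5.15 to -2.64 in untreated tumours and from -4.20 to -2.51 in non-responders. Responders 1 and 2 were thus higher than all other tumours, and responder 3 was not. The mean over 9 of 10 adipocyte markers ran from -4.11 to -0.53 in untreated, from -3.99 to -0.70 in non-responder and from -4.0 to -1.05 in responder tumours. The muscle and adipocyte lists were below the reference in every tumour. Whether muscle or fat in the pieces had a part in the responder values of Wnt10b, Fzd1 and Axin2 was not tested.

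**Figure D4:**
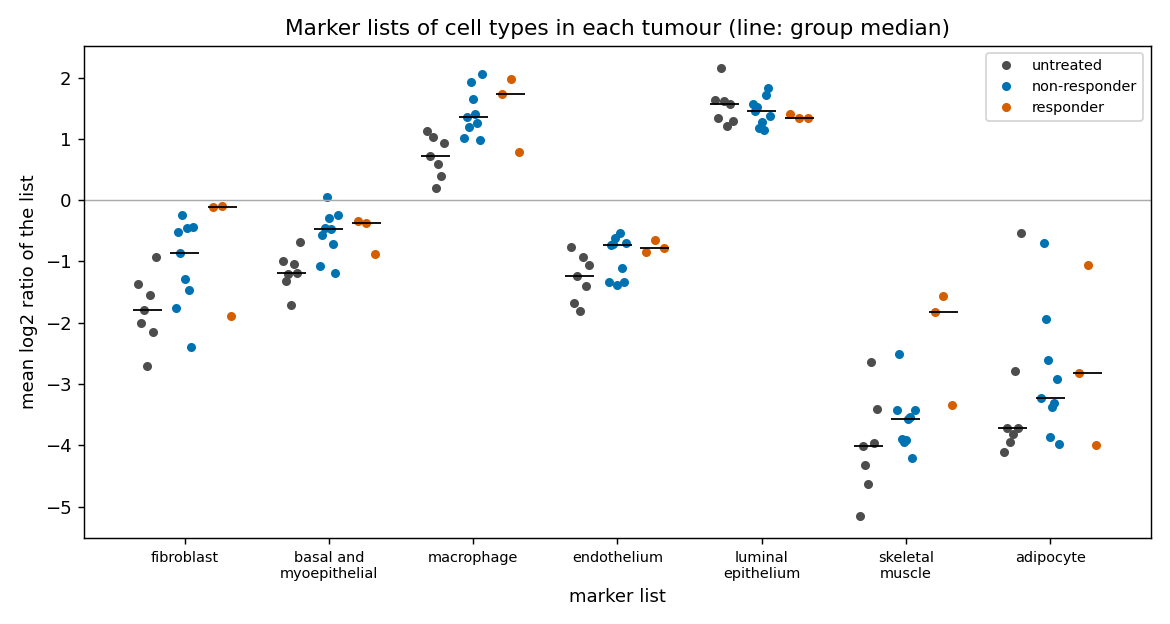
Mean log2 ratio of 7 lists of cell type markers in each tumour (points, coloured by group), with a bar at each group's median. The fibroblast median was -1.79 in untreated tumours, -0.86 in non-responders and -0.11 in responders, and the luminal medians lay between 1.34 and 1.56.

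Axin2, a scaffold of the beta-catenin destruction complex and its best known feedback target, was below the reference in every tumour. Untreated tumours had a lowest, median and highest value of -2.73, -2.15 and -0.73, and non-responders had -2.26, -1.83 and -0.29. Responders 1 to 3 had -0.23, -0.60 and -0.94. Responders lay above all non-responders except non-responder 2, and untreated tumours 3 and 7 lay within the responders' range. Responders minus untreated was 1.20 ± 0.44 (SE, 95% interval 0.27 to 2.12, limma adjusted p = 0.178), and responders minus non-responders was 1.09 ± 0.43 (SE, 95% interval 0.20 to 1.98, limma adjusted p = 0.692). Within the 7 hyphen-titled arrays these were 1.11 and 0.68, and at 3 weeks alone the second was 0.67. Treated minus untreated was 0.38 ± 0.34 (SE, limma adjusted p = 0.582), and non-responders minus untreated was 0.11 ± 0.32 (SE, limma adjusted p = 0.900), which turned to -0.06 without non-responder 2 and to -0.05 without untreated tumour 5. The 3 weeks minus 2 weeks difference was 0.29 ± 0.32 (SE, limma adjusted p = 0.945), but 0.06 without non-responder 2 and -0.54 within the 7 hyphen-titled arrays.

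Lgr5, a receptor for R-spondins that marks stem cells of several epithelia, was also below the reference in most tumours. Its lowest, median and highest values were -1.79, -0.91 and -0.28 in untreated tumours and -1.68, -0.47 and 0.10 in non-responders. Responders 1 to 3 had -0.94, -0.90 and -1.55, all within the untreated range. Treated minus untreated was 0.15 ± 0.25 (SE, 95% interval -0.37 to 0.67, limma adjusted p = 0.791). Its 2 spots went in opposite directions in that comparison, at -0.58 and 0.52. Responders minus non-responders was -0.49 ± 0.34 (SE, limma adjusted p = 0.893), or -0.28 without responder 3, and 3 weeks minus 2 weeks was -0.03 ± 0.31 (SE, limma adjusted p = 0.993).

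Other members with more than 1 spot also showed disagreement between spots. Of 14 such genes, 9 had spots of opposite sign for treated minus untreated, among them Fzd7 (-0.66 and 0.75) and Wnt5b (-0.49 and 0.68). For responders minus non-responders there were 6 of 14, Sfrp1 among them (-0.69 and 0.23). The average of such spots hides the value of each.

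The pair of tumours with 1 animal number gives a comparison of a responder with a non-responder that may share a mouse, with no replicate. Of 41 members measured in both, 9 (22.0%) differed by over 1 in either direction, beside 12.5% of all genes. Of the 41, 29 were positive, beside 8873 of 17674 genes in all. The median responder minus non-responder value was 0.30, beside 0.00 over all genes. It was 3.93 for Wnt3a, where non-responder 1 was at -6.32. Wnt5a had 2.72, Dkk3 had 2.53, Wif1 had 1.91, Lrp5 had 1.52, Wnt9b had 1.47 and Axin2 had 1.32.

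Beyond the members, 94 of 98 listed genes of the rest of the pathway were measured. Treated minus untreated gave 1 that passed as higher and 2 as lower, beside the 3.65% of all genes. Porcn, the acyltransferase that lipidates Wnts before secretion, rose by 1.34 ± 0.37 (SE, limma adjusted p = 0.0453). Its untreated values ran from -2.33 to 0.38 and its treated values from -0.57 to 1.95, and all 12 treated tumours lay above the untreated mean. Tnks2, a tankyrase that marks axin for breakdown, fell by 1.07 ± 0.26 (SE, limma adjusted p = 0.0300). Untreated tumour 2 was at 3.04 for Tnks2, the other untreated tumours lay between 0.66 and 1.32, and treated tumours ran from -0.36 to 0.84. Tle4, a Groucho-type co-repressor of TCF factors, fell by 1.10 ± 0.30 (SE, limma adjusted p = 0.0452), with untreated values from -2.52 to -0.44 and treated values from -3.31 to -2.09. For both Tnks2 and Tle4, each of the 12 treated tumours was below the untreated mean. These calls lie close to the threshold. Leaving out single tumours, Tnks2 lost its call without untreated tumour 4 or 6 (limma adjusted p = 0.0579 and 0.0666) and kept it in the other 17 of 19 fits, at -0.76 without untreated tumour 2. Porcn kept its call in 5 of 19 such fits, those without untreated tumour 7, responder 2 or non-responders 1, 2 or 8, and its difference ranged from 1.10 to 1.55 over all of them. Tle4 kept its call in 4 of 19, those without untreated tumours 1, 3 or 5 or non-responder 2, with a range of -1.26 to -0.92. With exact zeros kept as values, Tle4 was at -0.26 (limma adjusted p = 0.689). Over all alternatives run, the limma adjusted p of the treated minus untreated difference ran from 0.0174 to 0.394 for Tnks2, from 0.0125 to 0.369 for Porcn and from 0.0232 to 0.733 for Tle4.

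Known targets of beta-catenin gave 11 of 13 positive treated minus untreated differences with a median of 0.56, beside 52.7% positive and a median of 0.03 over all genes. In limma 0 of 13 passed, with 5 (38.5%) at an unadjusted p under 0.05, beside 20.0% of all genes. Ccnd1, the cyclin of the G1 phase, was the closest at 1.18 ± 0.34 (SE, limma adjusted p = 0.0556). A mostly positive list was not particular to these targets. In the same comparison 18 of 19 fibroblast markers (median 0.81) and 11 of 12 macrophage markers (median 0.74) were positive. So were 10 of 12 basal and myoepithelial markers (median 0.66), but only 6 of 13 luminal markers. Components of signalling without beta-catenin had a median of 0.07 over 26 genes, 0 of which passed in limma and 1 of which had an unadjusted p under 0.05. The 8 R-spondin genes and their partners had a median of -0.20, with 0 at an unadjusted p under 0.05. Of 15 nuclear components 6 (40.0%) had an unadjusted p under 0.05, 5 of them lower, and the median was -0.29. Of 20 cytoplasmic components 7 (35.0%) did, 5 of them lower, with 13 negative and a median of -0.07. Of 9 other antagonists 3 (33.3%) did, all 3 higher, with a median of 0.03. In the other 4 comparisons 0 of the 94 genes passed in limma. At an unadjusted p under 0.05 there were 19 (20.2%) for non-responders minus untreated and 15 (16.0%) for responders minus untreated, beside 17.3% and 16.1% of all genes. There were 4 (4.26%) for responders minus non-responders and 4 (4.26%) for 3 minus 2 weeks, beside 6.33% and 4.46% of all genes.

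Wls, the carrier that brings Wnts to the cell surface, had the smallest p of these genes between responders and non-responders. Responders 1 to 3 had 0.36, 0.04 and 0.63, and non-responders ran from -1.51 to -0.02, so that the groups lay apart. They did so for 1 of the 94 genes, beside 1.85% of all genes. The difference was 0.89 ± 0.29 (SE, limma adjusted p = 0.639). Untreated tumours ran from -0.80 to 0.08 for Wls and overlapped the responders. Chd8, a chromatin remodeller that binds beta-catenin, was next, with a difference of -0.64 (limma adjusted p = 0.733). Against untreated tumours the responders' smallest p-values were those of Rac1, a small GTPase, at 0.73 (limma adjusted p = 0.121) and Jag1, a Notch ligand, at 1.23 (limma adjusted p = 0.143). In non-responders they were those of Tnks2 at -1.10 (limma adjusted p = 0.0555) and Porcn at 1.43 (limma adjusted p = 0.0695). Between 3 and 2 weeks they were those of Porcn at -1.05 and Dact2, an inhibitor of Dishevelled signalling, at 1.96 (limma adjusted p = 0.940 for both).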

How the data were processed

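Each of 19 tumours was hybridised once on a 2-colour oligonucleotide array. The deposited values, 1 for each spot and array, are taken as log2 ratios from their range. The sources used here do not give the log base, the direction, the centring, the background correction, the normalization within arrays or what an exact 0 stands for. Per the labels, tumour RNA carried Cy5 and the reference Cy3 on every array, so a spot's dye effect cancels in a difference between tumours. Signal over background is not analysed here, and precision is limited by how many arrays there were.

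Of 45220 spots, 33653 had 1 gene in the platform annotation, 56 several and 11511 none. Exact zeros were taken as not measured. A spot needed values on at least 70% of a fit's arrays. The spots of a gene that were measured on an array were averaged, giving 18553 genes (18624 among treated arrays alone). All 43 members were found by gene identifier in the RefSeq gene table (GRCm38.p6), and 0 symbols changed. Tests were two-sided and used lmFit and eBayes of limma 3.58.1 (R 4.3.3), with p-values adjusted by Benjamini-Hochberg across every gene in the fit and called at 0.05, a step tested on simulated data. Treated and untreated tumours were compared in a model of 2 groups, the response groups in a model of 3 groups with all 19 arrays, and weeks in the 12 treated arrays with response as a term.

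The members, marker lists and pathway lists were chosen with earlier results of these data known. Described in full were members that passed, the 4 with the smallest p in each comparison, and Axin2 and Lgr5; of other pathway genes, those that passed and the 2 with the smallest p in each comparison. Other members named with values were picked after their values were seen. Alternatives covered the treatment of zeros, the filter, spot summary, normalization between arrays, variance moderation, title style, the shared animal number, the weeks and single arrays. Promoters came from a RefSeq table for GRCm38.p6; protein sequences were not used here. Figures were drawn with matplotlib 3.10.9.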

Additional observations from a re-analysis of the deposited data

Results flagged for a closer look

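Within the untreated and non-responder groups, 18 of 86 sets of a member's values had 1 tumour far from the rest by Dixon's test (20.9%), beside 14.8% of 37081 such sets over all genes on these arrays, where chance gives about 1 in 20. Of these, 6 were in untreated tumours and 12 in non-responders, and groups of 3, such as the responders, were not tested. Non-responder 2 accounted for 4 of them and untreated tumour 5 for 3.

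Non-responder 2 was high for Axin2 (-0.287, the next value being -1.40), for Fzd10 (-0.914, the next being -1.66) and for Fzd4 (-0.426, the next being -1.29), and low for Fzd6 (1.01, the next being 1.56). Each of these values lay nearer the reference than the next one. The array of non-responder 2 had the smallest SD of log2 ratios of the 19 arrays, 0.97 beside 1.17 to 1.47 for the others. Whether this smaller spread had a part in these values was not tested. Non-responder 2 is also 1 of the 2 hyphen-titled non-responders, so it enters the differences within those arrays for Axin2 and Fzd4. Untreated tumour 5 was low for Wnt10b (-1.35, the next being -0.52), for Wnt5a (-1.23, the next being -0.12) and for Wnt8a (-1.88, the next being -0.21). Untreated tumour 3 was high for Wnt2b (4.47, the next being 0.50) and for Wnt7a (2.45, the next being -0.22). Untreated tumour 4 was low for Dkk3 (-3.30, the next being -1.31).

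Non-responder 4 was low for Wnt10b (-2.97, the next being -0.80) and for Wnt2b (-1.61, the next being -0.25). Non-responder 6 was low for Wnt10a (0.854, the next being 1.78) and high for Wnt9b (1.31, the next being 0.09). Non-responder 9 was low for Wnt6 (-1.99, the next being -0.95) and high for Wnt8b (1.83, the next being 0.08). Non-responder 1 was low for Wnt3a (-6.32, the next being -1.98), and non-responder 3 was high for Wnt8a (0.713, the next being 0.12).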

How the results depend on the processing

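The 48 pairs of a named gene and a comparison were recomputed under 1424 alternatives over 37 settings, and 41 pairs kept their direction in each alternative run for them. Most of these pairs were picked by a small p, which favours a kept direction. The share is therefore no measure of how stable the members are as a whole. Members outside these pairs, such as Dkk1 and Sfrp4, turned without single tumours, as given above. The count of members that passed for treated minus untreated, 0 as reported, ranged from 0 to 1 when single tumours were left out, and for non-responders minus untreated from 0 to 1. It was 1 for treated minus untreated without untreated tumours 1, 3 or 7 or non-responders 1 or 8, without the tumours that share an animal number, and within the 12 arrays without the hyphen. It was 1 for non-responders minus untreated without untreated tumour 1 and within those 12 arrays. The member was Sfrp1, except Wnt11 without untreated tumour 3 and Dkk3 without non-responder 8. In the other 3 comparisons it was 0 under every alternative run. Beyond the members, Tnks2, Porcn and Tle4 lost their calls in some settings, as given above, and within either set of arrays by title or at either time alone.

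Of the 17 alternatives that turned a direction, all concerned Axin2, Lgr5 or Lrp6. Within the hyphen-titled arrays Lgr5 was -0.35 for treated and -0.078 for non-responders minus untreated, and between 3 and 2 weeks Axin2 was -0.54 and Lrp6 0.15. Axin2 in non-responders minus untreated ranged from -0.063, without non-responder 2, to 0.287, without untreated tumour 3, and was -0.046 without untreated tumour 5. Lgr5 in responders minus untreated was 0.45 with only spots measured on every array and with 1 spot a gene. Lgr5 between 3 and 2 weeks, -0.03 as reported, ranged from -0.18 to 0.16 without single tumours, turning without responder 1 (0.045), responder 3 (0.045), non-responder 1 (0.03), 6 (0.07), 7 (0.007) or 8 (0.16). It was 0.082 within the 12 other arrays, 0.12 without the shared animal number and 0.045 in non-responders only. The cause was not tested, beyond the fewer tumours or spots of these settings.

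No paired analysis was possible because the labels carry no replicate numbers, and the animal number shared by responder 3 and non-responder 1 gives only 1 pair. Leaving out 1 of the 3 responders leaves 2, so responder results rest on few arrays. The direction of the ratio, the response criteria and the mouse behind each tumour are known only from the labels or not at all, and the title style holds all responders on 1 side.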
